A study of Mus musculus with 21 samples.

Results

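Messenger RNA of tuft cells sorted from the mouse trachea was compared with that of tuft cells sorted from the mouse gall bladder. The comparison took the 4 libraries titled as trachea tuft cells and the 3 titled as gall bladder tuft cells, 7 of the 21 libraries of the series, and covered the autosomal genes, 38280 of 43432 deposited gene identifiers. The trachea group held 4 pools of 4 naive mice each, 12 to 16 weeks old, of which replicates 1 and 2 were male and replicates 3 and 4 female. The gall bladder group held 3 naive male mice of 12 weeks, 1 mouse per library, numbered 1, 3 and 4 because the study discarded 1 gall bladder replicate for failed quality control. Mice of both groups were of strain C57BL6.Il25(Flare25/Flare25), that is, homozygous for a reporter allele at the interleukin gene Il25, and both groups were sorted as DAPI-, CD45-, EPCAM+, Flare25+ cells. Il25 expression therefore defined the cells in both organs, and reporter-negative cells of trachea or gall bladder were not measured. The trachea was peeled after Dispase and dissociated with trypsin, whereas gall bladder epithelium was released with EDTA, so organ, dissociation, pooling and part of the sex and age differences cannot be told apart.

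Tuft cells, also called brush cells in the airway, are rare epithelial cells with a tuft of microvilli that depend on the transcription factor Pou2f3. They sense luminal compounds through G protein-coupled receptors that feed a cascade shared with taste cells, in which a G protein activates phospholipase C, calcium is released from internal stores, and the cation channel Trpm5 depolarises the cell. Their known outputs are the cytokine IL-25, cysteinyl leukotrienes, prostaglandins and acetylcholine. The trachea arises from anterior foregut endoderm marked by Nkx2-1 and Sox2, and the gall bladder from more posterior foregut endoderm, where Sox17 is needed for its formation in the mouse.

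Total counts ranged from 25739248 to 70243068 in trachea libraries and from 29031373 to 45773963 in gall bladder libraries, whereas 130 to 453 cells had been sorted in the trachea pools and 1750 to 2700 in the gall bladder. Mitochondrial transcripts took 5.57 to 10.1% of counts in trachea libraries and 14.8 to 17.0% in gall bladder libraries. Pearson correlations of log2 CPM (counts rescaled by TMM to one shared library size) were 0.780 to 0.801 among trachea libraries, 0.817 to 0.832 among gall bladder libraries and 0.584 to 0.642 between the groups. Gall bladder replicate 1 stood apart from the other 2 by airway transcripts: the club cell secretoglobin Scgb1a1 was at 232 CPM there, against 0.305 and 0.651 CPM in replicates 3 and 4. This equalled 1.04% of its mean in trachea libraries, and Bpifa1 and Nkx2-1 stood at 0.758% and 0.447% of theirs. For the airway secretory genes named by level and for Nkx2-1, Muc5ac, Krt15, Lyz2 and Chad, the fitted fold change is therefore also given without that library, and the cause of these counts was not tested. Other genes reported below, among them Gnb3, Foxa1, Cckar, Sox2 and Tas2r108, were also highest in replicate 1 among the gall bladder libraries. Their fold changes are given only with that library included.

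Of 13035 autosomal genes tested, 712 were called higher and 707 lower in trachea tuft libraries, at an adjusted p under 0.05 in edgeR's quasi-likelihood test and a change of at least 2-fold. The called shares, which serve as the background for the gene groups, were 5.46% higher, 5.42% lower and 10.9% in either direction. The changes were large, with a median log2 fold change (trachea over gall bladder) of 6.59 among genes called higher, -5.28 among genes called lower and 0.14 over all genes tested. Libraries of both groups did not overlap for 3290 genes (25.2%), of which 1399 were called. Leaving out 1 gall bladder library reduced the calls to between 353 and 392 higher and between 373 and 405 lower, against 570 to 638 higher and 603 to 674 lower without 1 trachea library. Male libraries alone gave 310 higher and 413 lower, and sex as a term 405 higher and 285 lower, whereas DESeq2 called 1493 higher and 1161 lower. Of the 114 genes of the function lists that were called, 43 lost the call with male libraries alone and 44 with sex as a term. Each count below refers to members of a gene list that were abundant enough to be tested. A member could pass that filter through the group where it is high, so counts and medians of lists describe the tested members and support nothing further.

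**Figure D1:**
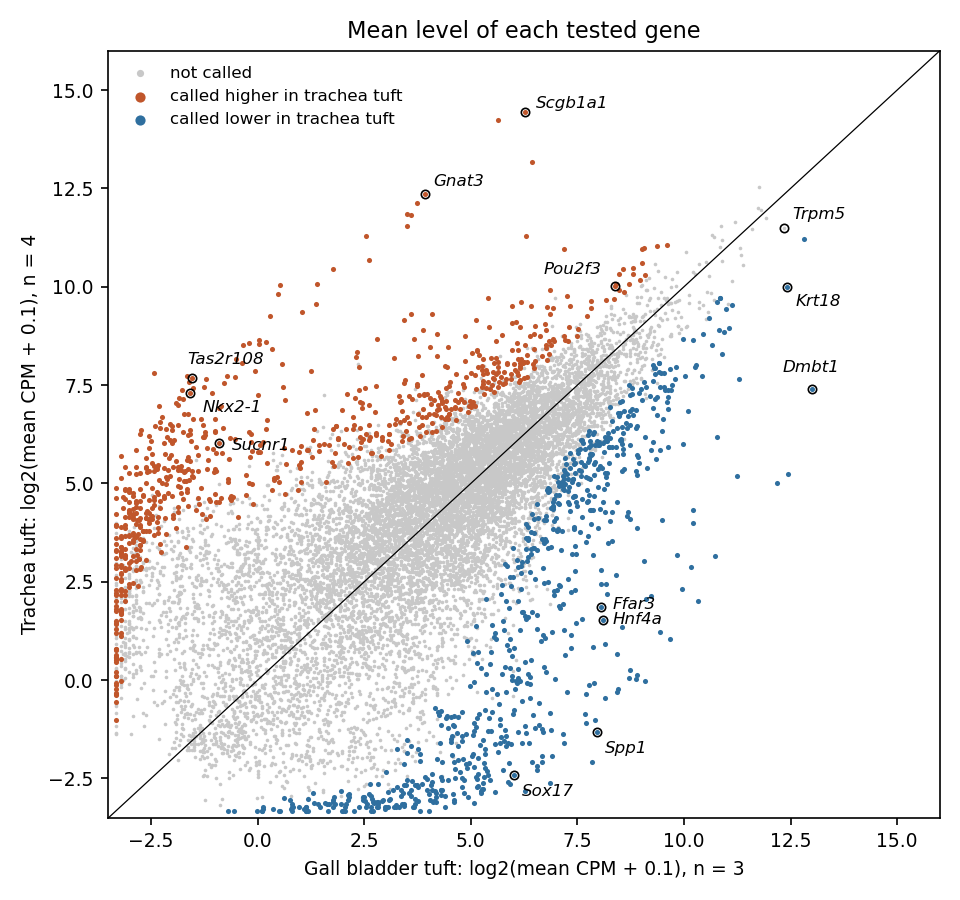
Mean level of each of the 13035 tested genes as log2(mean CPM + 0.1), in trachea tuft libraries (vertical axis, n = 4) against gall bladder tuft libraries (horizontal axis, n = 3). Orange and blue points are genes called higher (712) and lower (707) in trachea tuft cells, grey points were not called, circles mark named genes, and the line marks equal levels. Trpm5 lies close to the line, and Gnat3, Tas2r108 and Sucnr1 lie far above it, whereas Sox17, Ffar3, Hnf4a and Spp1 lie far below it.

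The identity genes of tuft cells were detected in every library. Trpm5 was at 2090, 3954, 2580 and 2956 CPM in trachea replicates 1 to 4, and at 5459, 5348 and 4845 CPM in gall bladder replicates 1, 3 and 4. All trachea libraries lay below all gall bladder libraries, but the difference was not called (log2 fold change -0.85 ± 0.31 SE, edgeR adjusted p = 0.107). Dclk1, a kinase used as a tuft cell marker, averaged 2831 ± 538 CPM in trachea libraries (SD, n = 4) and 3082 ± 217 CPM in gall bladder libraries (SD, n = 3), and their ranges overlapped. Il25, the gate gene, was at 38.4, 9.92, 13.6 and 59.9 CPM in trachea libraries and at 22.6, 40.6 and 7.60 CPM in gall bladder libraries, again with overlap. Pou2f3 was at 689, 1175, 950 and 1325 CPM in trachea libraries, against 244, 313 and 440 CPM in gall bladder libraries. The groups did not overlap and Pou2f3 was called higher (log2 fold change 1.64 ± 0.38 SE, adjusted p = 0.0181), but the call was lost without gall bladder replicate 1 or 3 (adjusted p of 0.0705 at most), with male libraries only and with sex as a term.

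Among 38 tested genes of the tuft core list, 4 were called higher and 9 lower, with a median log2 fold change of -0.33. Besides Pou2f3 and the G protein subunit Gnat3, the genes called higher were Pik3cg, the catalytic subunit of a phosphoinositide 3-kinase (1.21), and the transcription factor gene Runx1 (1.65). Avil, which encodes the actin-binding protein advillin, was at 730, 693, 877 and 652 CPM in trachea libraries and at 2426, 2116 and 2131 CPM in gall bladder libraries (log2 fold change -1.59 ± 0.30 SE, adjusted p = 0.00635). The transcriptional repressor gene Gfi1b was at 22.1, 42.3, 7.90 and 70.5 CPM in trachea libraries and at 365, 222 and 282 CPM in gall bladder libraries (-3.02 ± 0.63). No library of one organ reached the range of the other for either gene. The calmodulin-binding protein gene Nrgn (-3.24), Ly6g6f (-3.25), the keratin gene Krt18 (-2.42), the guanine nucleotide exchange factor gene Vav1 (-1.65), Sh2d6 (-1.60) and the leukotriene C4 synthase gene Ltc4s (-1.68) were also called lower. Without 1 library the calls numbered 1 to 6 higher and 7 to 8 lower. Pik3cg, Runx1 and Ltc4s each lost the call without at least 1 library, among them gall bladder replicates 1 and 3 (adjusted p up to 0.111, 0.0633 and 0.196 in that order).

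The taste transduction genes differed by member. Gnat3 encodes gustducin, the alpha subunit that couples taste receptors to phospholipase C, and it was at 2493, 6195, 5418 and 6808 CPM in trachea libraries, against 15.2, 4.94 and 25.3 CPM in gall bladder libraries. Every trachea library exceeded every gall bladder library by about 2 orders of magnitude or more (log2 fold change 8.43 ± 0.73 SE, edgeR adjusted p = 9.42e-05). Gnb3, the beta subunit of the same G protein, was at 678, 732, 1380 and 824 CPM in trachea libraries and at 3.23, 0.339 and 0.325 CPM in gall bladder libraries (9.43 ± 1.03, adjusted p = 0.000239). The gamma subunit gene Gng13 was at 72.3, 55.9, 51.8 and 58.1 CPM in trachea libraries and at 154, 80.7 and 103 CPM in gall bladder libraries. All trachea libraries thus lay below all gall bladder libraries, opposite to Gnat3 and Gnb3, without a call (-0.92 ± 0.47, adjusted p = 0.247). Gng13 overlaps Chtf18 on the opposite strand, which averaged 57.5 CPM in trachea libraries and 2.17 CPM in gall bladder libraries. Whether counting used strand is unknown, so the level and direction of Gng13 are uncertain. Rgs21, which encodes a taste cell protein that shortens G protein signals, was at 7.62, 70.2, 154 and 110 CPM in trachea libraries and at 0.212, 0.0339 and 0.0697 CPM in gall bladder libraries (9.59 ± 1.35, adjusted p = 0.00118).

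Further along the cascade, the phospholipase gene Plcb2 averaged 587 ± 335 CPM in trachea libraries and 361 ± 137 CPM in gall bladder libraries, and the calcium release channel gene Itpr3 343 ± 125 CPM in trachea libraries and 171 ± 62.7 CPM in gall bladder libraries. Neither was called, although the lowest trachea value of Itpr3, 233 CPM, lay just above its highest gall bladder value, 231 CPM. Tas1r3, a subunit of the sweet and umami receptors, was at 191, 338, 498 and 688 CPM in trachea libraries and at 27.7, 11.1 and 48.4 CPM in gall bladder libraries (log2 fold change 3.88 ± 0.64 SE, edgeR adjusted p = 0.00292). The G protein alpha subunit gene Gna14 was also called higher (7.03). Calhm1, a pore subunit of the channel that releases ATP from taste cells, had no count in the gall bladder libraries and was at 0.603, 0.660, 11.5 and 17.3 CPM in trachea libraries, at least 208-fold higher when the gall bladder group is set at a floor of 3 counts. Its call was lost without any 1 of the gall bladder libraries (adjusted p up to 0.102). In all, 6 of 17 tested taste cascade genes were called higher and 0 lower, with 11 not called and a median log2 fold change of 0.95. Tas1r3 overlaps Dvl1 and Trpm5 overlaps Tssc4 on the opposite strand, and whether counting used strand is unknown here.

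Bitter taste receptors of the Tas2r family had almost no counts in gall bladder libraries. Their summed level was 123, 279, 440 and 438 CPM in trachea libraries, against 1.63, 0 and 2.00 CPM in gall bladder libraries. Of 35 listed genes, 12 passed the filter on low counts and 7 were called higher, with 0 called lower. Since a gene could pass through the trachea libraries alone, this count gives no support beyond the values. Tas2r108, a receptor of airway tuft cells, was at 93.7, 184, 271 and 267 CPM in trachea libraries and at 0.660, 0 and 0.0697 CPM in gall bladder libraries (log2 fold change 9.65 ± 1.25 SE, edgeR adjusted p = 0.000738). Tas2r137 was at 4.01, 14.4, 87.6 and 45.5 CPM in trachea libraries and at 0.0942, 0 and 0.0232 CPM in gall bladder libraries (9.75 ± 1.79, adjusted p = 0.00544). Both receptors were present in all 4 trachea pools, though the lowest and highest pools of Tas2r137 differed more than those of Tas2r108.

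Tas2r135 had 1866 counts in trachea libraries and 1 in gall bladder libraries, a CPM ratio of 1263 (exact 95% interval 226 to 49900). For Tas2r136 the ratio was 609 (109 to 24081) and for Tas2r117 it was 139 (24.6 to 5505), each against 1 gall bladder count. Tas2r104 had 0 gall bladder counts and was at least 58.2-fold higher, and Tas2r116 averaged 12.3 ± 13.2 CPM in trachea libraries and 0.0393 ± 0.0680 CPM in gall bladder libraries. Because the cDNA was amplified without molecular identifiers, such intervals and floors cover counting error only. Tas2r138 was not called (5.29, adjusted p = 0.0730). Without 1 library between 2 and 7 of these genes remained called: Tas2r104, Tas2r116, Tas2r117, Tas2r135 and Tas2r136 lost the call without any 1 of the gall bladder libraries (adjusted p from 0.0586 to 0.204). Reads of similar family members may have been divided between them.

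**Figure D2:**
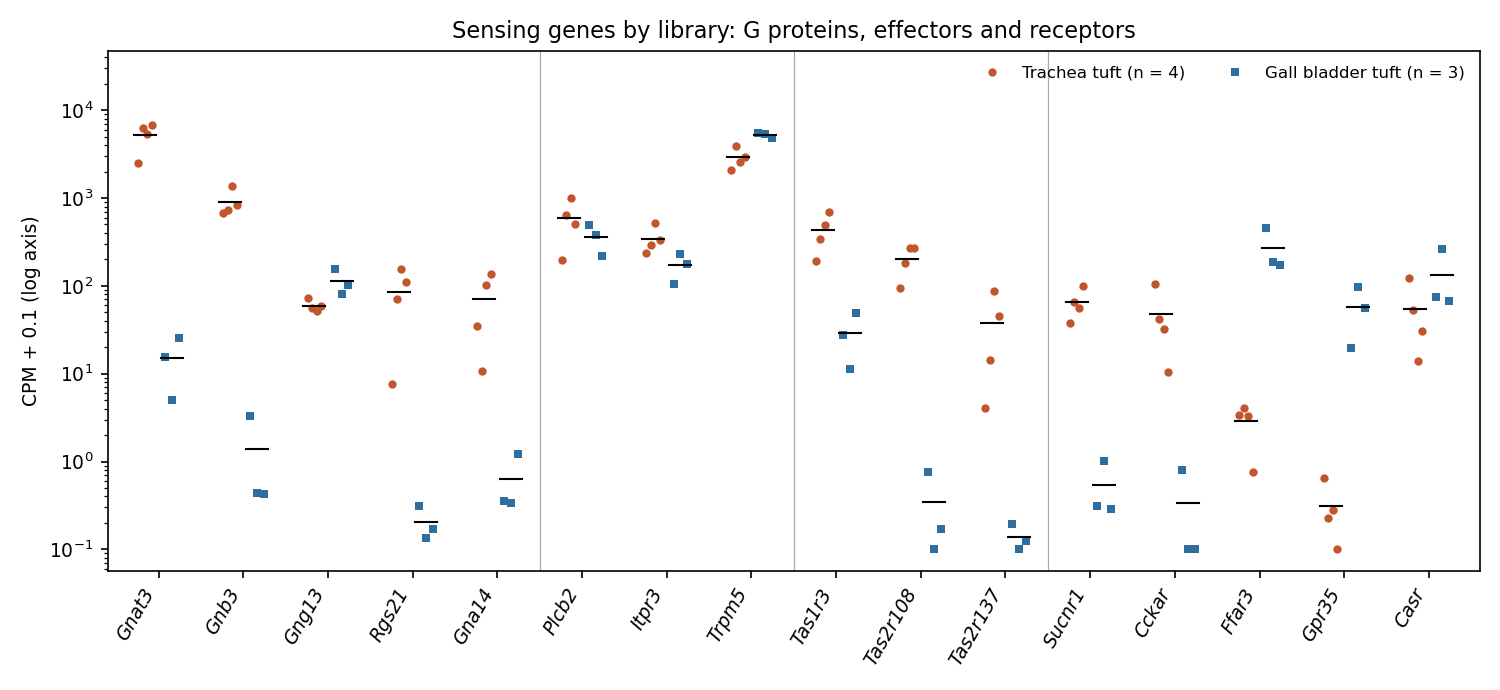
CPM + 0.1 of 16 sensing genes on a log axis, in trachea tuft libraries (orange circles, n = 4) and gall bladder tuft libraries (blue squares, n = 3), with black bars at the means. Vertical lines separate G protein genes and their regulator, effectors, taste receptors, and receptors of metabolites and other ligands. Plcb2 and Casr overlap between the groups, and Gng13, Itpr3 and Trpm5 separate narrowly without a call, Gng13 and Trpm5 downward in trachea libraries. By contrast, Gnat3, Gnb3, the taste receptors and Sucnr1 separate upward and Ffar3 and Gpr35 downward in trachea libraries.

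Receptors for metabolites were called in both directions. Sucnr1, the receptor for succinate (chr3:60081869-60087566, plus strand), was at 37.3, 65.7, 56.2 and 99.2 CPM in trachea libraries and at 0.212, 0.914 and 0.186 CPM in gall bladder libraries. Its lowest trachea library was above its highest gall bladder library by more than an order of magnitude, and it was called higher (log2 fold change 7.21 ± 1.07 SE, edgeR adjusted p = 0.00157) in all 18 alternatives tried. When the 18 tuft libraries of the series were scaled together, Sucnr1 averaged 68.0 ± 27.3 CPM in trachea (n = 4), 23.8 ± 4.09 CPM in small intestine (n = 3), 3.54 ± 2.07 CPM in thymus (n = 4), 2.68 ± 2.00 CPM in colon (n = 4) and 0.471 ± 0.446 CPM in gall bladder (n = 3). The thymus and colon ranges overlapped. Cckar, a receptor for cholecystokinin, was at 106, 41.7, 32.4 and 10.5 CPM in trachea libraries and at 0.707, 0 and 0 CPM in gall bladder libraries (7.62 ± 1.87, adjusted p = 0.0229), and its call was lost without gall bladder replicate 3 or 4 or trachea replicate 1 (adjusted p up to 0.0621).

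Ffar3, a receptor for short-chain fatty acids, was at 3.30, 4.00, 3.23 and 0.665 CPM in trachea libraries and at 456, 187 and 173 CPM in gall bladder libraries (log2 fold change -6.60 ± 0.72 SE, edgeR adjusted p = 0.000239). On the scale of 18 tuft libraries Ffar3 averaged 2.95 ± 1.56 CPM in trachea, 7.57 ± 4.84 CPM in thymus, 156 ± 70.2 CPM in colon, 623 ± 48.3 CPM in small intestine and 294 ± 174 CPM in gall bladder. The ranges of trachea and thymus overlapped, and those of colon and gall bladder did too. Gpr35, a receptor with ligands among tryptophan metabolites, was at 0.55, 0.126, 0.179 and 0 CPM in trachea libraries and at 19.3, 95.9 and 55.2 CPM in gall bladder libraries (-8.02 ± 1.38, adjusted p = 0.00377). Casr, the calcium-sensing receptor, averaged 55.0 ± 48.0 CPM in trachea libraries and 134 ± 110 CPM in gall bladder libraries, with overlap and no call. Of 9 tested metabolite receptors 2 were called higher and 2 lower.

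Promoter windows of 3 of these sensing genes are shown because they hold the octamer motif ATGCAAAT that POU domain proteins such as Pou2f3 are known to bind, here searched on both strands. The motif was chosen after values of these data were known. The windows run from 250 bases before to 50 bases after the start site and come from RefSeq on build GRCm38.p6, read 5′ to 3′ along the gene's strand, with the match in capitals. In Sucnr1 and Rgs21 it reads forward and begins 48 and 200 bases before the start site, and in Tas2r108 it reads as its reverse complement ATTTGCAT and begins 146 bases before it.
Sucnr1, chr3:60081619-60081918, plus strand: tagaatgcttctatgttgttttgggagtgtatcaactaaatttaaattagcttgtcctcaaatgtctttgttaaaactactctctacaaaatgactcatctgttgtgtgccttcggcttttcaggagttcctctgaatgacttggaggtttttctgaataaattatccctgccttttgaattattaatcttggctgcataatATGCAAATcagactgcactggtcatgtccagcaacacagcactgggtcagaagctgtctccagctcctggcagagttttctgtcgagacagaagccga
Rgs21, chr1:144567618-144567917, minus strand: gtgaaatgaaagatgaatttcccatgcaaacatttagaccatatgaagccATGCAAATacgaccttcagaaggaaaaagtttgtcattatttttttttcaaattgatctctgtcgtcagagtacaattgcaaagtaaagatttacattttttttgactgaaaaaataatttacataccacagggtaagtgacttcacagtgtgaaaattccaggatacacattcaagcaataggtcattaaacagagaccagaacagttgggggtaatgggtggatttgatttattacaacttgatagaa
Tas2r108, chr6:40493342-40493641, plus strand: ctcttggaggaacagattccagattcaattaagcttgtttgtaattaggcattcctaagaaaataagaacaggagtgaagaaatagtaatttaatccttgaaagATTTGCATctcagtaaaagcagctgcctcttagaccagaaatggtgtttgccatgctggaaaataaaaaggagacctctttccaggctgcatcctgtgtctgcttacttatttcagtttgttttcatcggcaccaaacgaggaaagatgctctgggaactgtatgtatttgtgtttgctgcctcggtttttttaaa
The octamer was present in 570 of all 32851 windows (1.74%). Counted by gene, any window held it for 13 of 506 genes called higher (2.57%) and 14 of 505 genes called lower (2.77%). The same held for 172 of the 9718 tested genes with a window (1.77%). A gene can have several windows, so the shares of genes and of windows differ in unit. Tas2r135, Tas2r137, Spp1 and Habp2 also held it. A match describes these letters and is no evidence of binding.

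Among transcription factor genes of the endoderm, 10 of 23 tested were called lower in trachea tuft libraries, 2 higher and 11 in neither direction, with a median log2 fold change of -2.83. Sox17, an SRY-box factor required for gall bladder formation in the mouse (chr1:4490931-4497354, minus strand), was at 0.341, 0.0140, 0 and 0 CPM in trachea libraries and at 71.3, 57.9 and 62.8 CPM in gall bladder libraries (log2 fold change -9.44 ± 1.58 SE, edgeR adjusted p = 0.00318). The groups were far apart, the call held in all 18 alternatives, and on the scale of 18 tuft libraries Sox17 averaged 0.106 CPM or less in small intestine, colon, thymus and trachea, against 68.9 ± 7.65 CPM in gall bladder. Onecut2, a hepatobiliary homeobox gene, was at 3.93, 2.92, 1.59 and 0.591 CPM in trachea libraries and at 563, 604 and 900 CPM in gall bladder libraries (-8.24 ± 0.68, adjusted p = 8.04e-05). Hnf4a, a nuclear receptor of liver and gut epithelium, was at 5.69, 2.68, 3.29 and 2.47 CPM in trachea libraries and at 486, 187 and 119 CPM in gall bladder libraries (-6.22 ± 0.65, adjusted p = 0.000196). Onecut1 (-9.15), Hhex (-9.12), the GATA factor gene Gata6 (-6.10), the nuclear receptor gene Nr5a2 (-9.23), the bile acid receptor gene Nr1h4 (-6.58) and the homeobox gene Cdx1 (-5.81) were called lower too.

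The 2 endoderm factors called higher were Foxa1, a forkhead pioneer factor gene at 412, 1076, 481 and 467 CPM in trachea libraries and at 2.76, 0.102 and 0.511 CPM in gall bladder libraries (9.06 ± 1.11 SE, edgeR adjusted p = 0.000530), and the LIM homeobox gene Isl1 (8.37). Sox9, a factor gene of duct and progenitor epithelium, averaged 660 ± 211 CPM in trachea libraries and 929 ± 247 CPM in gall bladder libraries and overlapped between the organs. Without 1 library 8 to 9 of the factors were called lower. Nr1h4 lost its call without any 1 of the 7 libraries (adjusted p up to 0.124), Cdx1 without gall bladder replicate 3 or 4 (up to 0.0670) and Isl1 without any 1 of the gall bladder libraries (up to 0.0807).

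Of 26 listed airway and anterior foregut factors, 20 passed the filter on low counts, of which 11 were called higher and 1 lower. Most of those called higher had few or no counts in gall bladder libraries and could pass through the trachea alone, so this count gives no support beyond the values. Nkx2-1, which specifies lung and trachea, was at 127, 218, 181 and 106 CPM in trachea libraries and at 0.707, 0 and 0 CPM in gall bladder libraries (9.33 ± 1.47 SE, edgeR adjusted p = 0.00222). The only gall bladder library with counts was replicate 1, and the fitted value without it, 15.64, is set against 0 counts and is no bound. Sox2, a factor of foregut and airway progenitors, was at 46.0, 18.4, 69.5 and 65.3 CPM in trachea libraries and at 0.189, 0 and 0 CPM in gall bladder libraries (9.51 ± 1.65, adjusted p = 0.00387). The pharyngeal T-box gene Tbx1 (9.29), the paired box gene Pax9 (8.42), the Iroquois genes Irx1 (8.71), Irx2 (9.60) and Irx5 (8.13), the homeobox gene Six4 (8.34), Foxp2 (5.92) and Elf5 (7.90) were also called higher. Foxp1 was called lower and was at 49.6, 57.2, 37.3 and 130 CPM in trachea libraries, against 312, 326 and 460 CPM in gall bladder libraries (-2.42 ± 0.48, adjusted p = 0.00850). Foxe1, a thyroid and foregut forkhead gene, averaged 99.6 ± 11.3 CPM in trachea libraries and 125 ± 52.4 CPM in gall bladder libraries and was not called. Irx5, Foxp2 and Elf5 lost the call without at least 1 library, gall bladder replicate 3 or 4 among them (adjusted p up to 0.0812, 0.0976 and 0.0571 in that order), and 9 to 12 factors were called higher when 1 library was left out.

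Hox genes, which carry positional identity along the body axis, had low counts in gall bladder libraries. Summed over the 39 genes they were at 187, 418, 301 and 576 CPM in trachea libraries and at 1.48, 0.508 and 7.74 CPM in gall bladder libraries. Only 8 passed the filter, which a gene could do through the trachea alone, and 7 of these were called higher. Hoxa3 was at 68.5, 134, 118 and 344 CPM in trachea libraries and at 0.306, 0.203 and 0.0697 CPM in gall bladder libraries (log2 fold change 9.73 ± 0.97 SE, edgeR adjusted p = 0.000162). Hoxa2 was at 35.0, 104, 46.9 and 143 CPM in trachea libraries and at 0.118, 0.0339 and 0 CPM in gall bladder libraries (10.56 ± 1.32, adjusted p = 0.000592). Hoxa4 (7.56), Hoxa5 (7.95), Hoxa7 (8.01), Hoxb3 (7.71) and Hoxb4 (9.41) were called as well, all from the 3′ and middle part of the clusters. Hoxa3 overlaps both Hoxa4 and Hoxa5, and each of these genes overlaps antisense transcripts, so their reads may be shared. The scale of 18 tuft libraries placed Hoxa3 at 175 ± 128 CPM in trachea, 66.5 ± 11.3 CPM in colon, 10.6 ± 2.32 CPM in small intestine, 3.54 ± 1.34 CPM in thymus and 0.208 ± 0.129 CPM in gall bladder. The ranges of trachea and colon overlapped, with a lowest trachea value of 71.3 CPM and a highest colon value of 75.9 CPM. Between 4 and 7 Hox genes were called without 1 library, and Hoxa5, Hoxa7 and Hoxb3 lost the call without gall bladder replicate 3 or 4 (adjusted p up to 0.118).

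**Figure D3:**
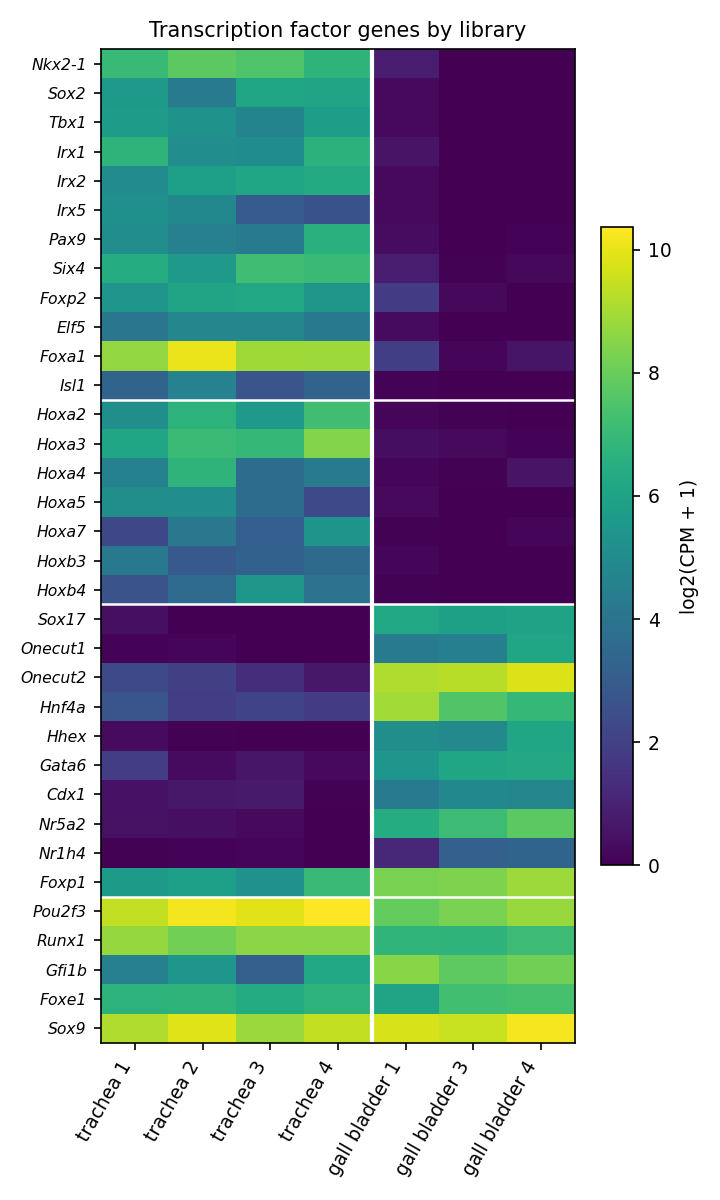
Level of 34 transcription factor genes as log2(CPM + 1), by library, with trachea tuft replicates in the 4 columns on the left and gall bladder tuft replicates in the 3 on the right. White lines separate, from top to bottom, genes called higher from the airway and endoderm lists, Hox genes, genes called lower, and factors of tuft cells or both epithelia. Gene by gene, the upper blocks are brighter in trachea columns and the Sox17 to Nr1h4 block in gall bladder columns. Nr1h4 is faint in the gall bladder, and Hnf4a is weakly visible in the trachea. Foxp1, Pou2f3, Runx1, Foxe1 and Sox9 are detected in all 7 libraries.

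Of 14 tested genes of bile acid and biliary transport, 7 were called lower in trachea tuft libraries, 0 higher and 7 in neither direction, with a median log2 fold change of -4.10. Aqp1, a water channel, was at 2.20, 0.477, 0.359 and 0 CPM in trachea libraries and at 692, 264 and 92.3 CPM in gall bladder libraries (log2 fold change -8.83 ± 1.26 SE, edgeR adjusted p = 0.00126). Car2, a carbonic anhydrase gene, was at 2.80, 0.351, 0.0897 and 0.185 CPM in trachea libraries and at 477, 124 and 106 CPM in gall bladder libraries (-8.09 ± 1.22, adjusted p = 0.00173). The gall bladder values spread several-fold between mice but stayed far above the trachea. The sodium-proton exchanger gene Slc9a3 (-6.95), the chloride-bicarbonate exchanger gene Slc26a3 (-7.56) and the organic anion exporter gene Abcc3 (-2.45) were called lower as well. Nr0b2, a bile acid-induced nuclear receptor gene, had 1 count in trachea libraries and 882 in gall bladder libraries, a ratio of 1303 of gall bladder over trachea (exact 95% interval 233 to 51540). Nr1h4 is the other member called lower. Without 1 library 5 to 7 were called lower: besides Nr1h4, which is described above, Abcc3 lost its call without gall bladder replicate 3 (adjusted p = 0.0534) and Nr0b2 without replicate 1 (0.0783).

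In the list of airway ion and fluid transport, 3 of 12 tested genes were called higher and 1 lower. Scnn1a, a subunit of the epithelial sodium channel, was at 564, 225, 365 and 368 CPM in trachea libraries and at 93.1, 78.4 and 32.7 CPM in gall bladder libraries (log2 fold change 2.48 ± 0.50 SE, edgeR adjusted p = 0.00910). The water channel genes Aqp4 (7.62) and Aqp3 (7.74) were the others, and Aqp3 lost its call without 1 of 4 libraries (adjusted p up to 0.0798), the 3 gall bladder libraries and trachea replicate 2. Kcnn4, a calcium-activated potassium channel, was at 2.02, 0.365, 0.0897 and 0.0369 CPM in trachea libraries and at 232, 182 and 443 CPM in gall bladder libraries (-8.81 ± 1.18, adjusted p = 0.000894).

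Effector genes of tuft cells differed at single steps. In the eicosanoid pathway, 2 of 16 tested enzymes were called higher and 1 lower (18.8% in all, against 10.9% of all genes tested). Alox15, a lipoxygenase, was at 124, 99.7, 23.2 and 111 CPM in trachea libraries and at 0.660, 0 and 0.279 CPM in gall bladder libraries (log2 fold change 8.12 ± 1.33 SE, edgeR adjusted p = 0.00280). Ptges, which makes prostaglandin E2, was at 79.6, 22.4, 4.19 and 10.6 CPM in trachea libraries and at 0.636, 0.0677 and 0.186 CPM in gall bladder libraries (6.60 ± 1.61, adjusted p = 0.0223). Its call was lost without gall bladder replicate 3 or 4 or trachea replicate 1 (adjusted p up to 0.0823). Alox5, the first enzyme of leukotriene synthesis, averaged 791 ± 206 CPM in trachea libraries and 915 ± 208 CPM in gall bladder libraries and Ptgs1, a cyclooxygenase, 742 ± 140 CPM in trachea libraries and 700 ± 108 CPM in gall bladder libraries, both with overlap. Alox5ap (-1.08, adjusted p = 0.0762) and the prostaglandin D synthase gene Hpgds (-1.39, adjusted p = 0.105) lay lower in all trachea libraries without passing the threshold. None of 4 tested eicosanoid receptors and none of 14 tested genes of the type 2 cytokine axis was called by edgeR, whereas DESeq2 called 1 lower in each list and 2 and 1 genes had an unadjusted p under 0.05 in edgeR.

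In the list of leukocyte-type signalling genes, which tuft cells are known to share with blood cells, 1 of 24 tested was called higher and 8 lower, with a median log2 fold change of -0.96. Plcg2, a phospholipase that acts below receptor-linked kinases, was at 198, 240, 94.8 and 196 CPM in trachea libraries and at 967, 873 and 683 CPM in gall bladder libraries (-2.21 ± 0.39 SE, edgeR adjusted p = 0.00427). Vav1 and Sh2d6 also belong to this list, and others called lower were the kinase genes Tec (-2.88) and Lck (-6.84) and the adaptor genes Skap2 (-1.48) and Pstpip1 (-2.10). Ptprc, which encodes the CD45 used to exclude blood cells, averaged 47.5 ± 36.6 CPM in trachea libraries and 134 ± 38.8 CPM in gall bladder libraries, with overlap and no call. The number called lower was 3 to 8 without 1 library, and Tec, Lck, Skap2 and Pstpip1 each lost the call without at least gall bladder replicates 1 and 4 (adjusted p up to 0.182).

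Among 7 tested acetylcholine genes, Chat, the enzyme that makes acetylcholine, was not called: it was at 94.1, 250, 277 and 60.1 CPM in trachea libraries and at 318, 455 and 461 CPM in gall bladder libraries (log2 fold change -1.27 ± 0.52 SE, edgeR adjusted p = 0.144). Slc44a4, a choline transporter family gene, was at 206, 464, 202 and 170 CPM in trachea libraries and at 67.2, 71.5 and 56.2 CPM in gall bladder libraries (2.00 ± 0.47, adjusted p = 0.0195). Chrm3, a muscarinic receptor gene, was at 0.393, 0.912, 0 and 0.0738 CPM in trachea libraries and at 15.3, 30.4 and 27.4 CPM in gall bladder libraries (-6.11 ± 1.64, adjusted p = 0.0341). Neither pair of groups overlapped, but both calls were lost without any 1 of the gall bladder libraries (adjusted p up to 0.0781 for Slc44a4, and at least 0.0627 for Chrm3).

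Genes of vesicle release differed by member. Of 18 tested, 3 were called higher and 2 lower. Cadps2, a factor of dense-core vesicle release, was at 435, 590, 544 and 711 CPM in trachea libraries and at 39.6, 25.5 and 39.1 CPM in gall bladder libraries (4.04 ± 0.42, adjusted p = 0.000196). The vesicle SNARE gene Vamp2 was also called higher (2.18). The calcium sensor gene Syt1 was at 0.131, 0.182, 0 and 0 CPM in trachea libraries and at 27.0, 15.2 and 40.3 CPM in gall bladder libraries (-8.33 ± 1.71, adjusted p = 0.00982), and the active zone gene Rims2 was called lower as well (-4.80). Leaving out any single library gave 3 to 4 genes called higher and 2 lower, and male libraries only gave 2 higher and 2 lower. With sex as a term 3 were called higher and 0 lower, so Syt1 and Rims2 both lost the call there.

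Of 21 tested voltage-gated and potassium channels, 1 was called higher and 4 lower. Kcnj2, an inward rectifier, was at 81.1, 317, 144 and 148 CPM in trachea libraries and at 7.12, 7.86 and 1.81 CPM in gall bladder libraries (log2 fold change 4.95 ± 0.75 SE, edgeR adjusted p = 0.00183). Besides Kcnn4, the genes called lower were the K2P channel gene Kcnk5 (-7.64), the calcium channel gene Cacna1a (-2.14) and the sodium channel gene Scn8a, which had 3 counts in trachea libraries and 2978 in gall bladder libraries, a ratio of 1467 of gall bladder over trachea (exact 95% interval 501 to 7118). Cacna1a lost its call without 1 of 5 libraries, gall bladder replicates 1 and 3 and trachea replicates 1 to 3 (adjusted p up to 0.171).

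Structural and barrier genes were called in part. The called share was 45.5% of tested keratins, 15.4% of mucin and trefoil genes and 20.0% of claudin and junction genes. Of all genes tested it was 10.9%, so the mucin share lay near it. Among 11 tested keratins, Krt4 (7.73) and Krt15 (8.18, or 13.42 without gall bladder replicate 1) were called higher and Krt8 (-1.35), Krt18 and Krt23 (-1.79) lower. The value of 13.42 for Krt15 is set against 0.0339 and 0.0232 CPM in gall bladder replicates 3 and 4 and is no bound. Krt18, a keratin of simple epithelia, was at 946, 1132, 1146 and 855 CPM in trachea libraries and at 6649, 4776 and 4998 CPM in gall bladder libraries, a separation of several-fold in every library. Among 13 tested mucin and trefoil genes, the gel-forming mucins Muc5b (8.04) and Muc5ac (8.47) were called higher and 0 lower. Without gall bladder replicate 1 Muc5ac had no gall bladder counts and a fitted value of 12.29, which is no bound. Muc1, a membrane mucin, averaged 942 ± 421 CPM in trachea libraries and 1492 ± 162 CPM in gall bladder libraries with overlap. Among 20 tested claudin and junction genes, Cldn10 was called higher (8.89) and Cldn3 (-2.24), the occludin gene Ocln (-3.19) and the junction scaffold gene Tjp3 (-2.03) lower. Krt4, Krt8, Krt23, Muc5ac, Cldn3, Ocln and Tjp3 lost the call in edgeR without at least 1 library, gall bladder replicate 4 among them in each case (adjusted p up to 0.150), and without that library none of these 3 junction genes was called lower.

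Of the immune-related lists, those of MHC genes held a called share no higher than the 10.9% of all genes tested. None of 7 tested MHC class II genes was called by edgeR, with 1 at an unadjusted p under 0.05 and 1 called higher by DESeq2. Of 13 tested MHC class I genes 1 was called by edgeR (7.69%), the light chain gene B2m. It was at 936, 993, 1544 and 816 CPM in trachea libraries and at 382, 290 and 349 CPM in gall bladder libraries (log2 fold change 1.66 ± 0.36 SE, adjusted p = 0.0131). Of 24 tested interferon-stimulated genes, 6 were called (25.0%, against 10.9% of all genes): Ifi27l2a (4.56), Xaf1 (4.88) and Zbp1 (4.48) were called higher, and Oasl1 (-4.61), Oas2 (-2.29) and Stat2 (-1.43) lower. Of 15 tested chemokines and alarm cytokines, 4 were called (26.7%): Cxcl15 (8.39) and Cxcl17 (4.03) were called higher and Cxcl16 (-4.74) and Tnf (-6.58) lower. Cxcl17, a mucosal chemokine, was at 144, 51.0, 87.0 and 57.7 CPM in trachea libraries and at 0.613, 7.89 and 7.11 CPM in gall bladder libraries, without overlap. Apart from Xaf1, each of these genes lost its call without at least 1 library, gall bladder replicate 3 or 4 in each case (adjusted p up to 0.139). With male libraries only, 0 interferon-stimulated genes were called higher, so Xaf1 was not called there either.

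Of 21 tested genes of the dissociation response, 0 were called higher, 5 lower and 16 in neither direction, with a median log2 fold change of -0.79. The immediate early gene Klf6 was at 213, 168, 228 and 239 CPM in trachea libraries and at 543, 1022 and 1582 CPM in gall bladder libraries (-2.31 ± 0.40 SE, edgeR adjusted p = 0.00382). Atf3 (-2.41), Nr4a1 (-2.17), the NF-kappaB inhibitor gene Nfkbia (-2.18) and the chaperone gene Hsp90aa1 (-1.56) were the others, while Jun averaged 749 ± 167 CPM in trachea libraries and 1397 ± 698 CPM in gall bladder libraries with overlap. Dissociation and organ cannot be told apart here. Without 1 library 2 to 6 genes were called lower, and Hsp90aa1 lost its call without any 1 of the 7 libraries, Nr4a1 without gall bladder replicate 3 or 4 and Atf3 without replicate 4 (adjusted p up to 0.122). None of 15 tested proliferation genes was called by edgeR or DESeq2 and 0 had an unadjusted p under 0.05, with a median log2 fold change of 0.21.

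**Figure D4:**
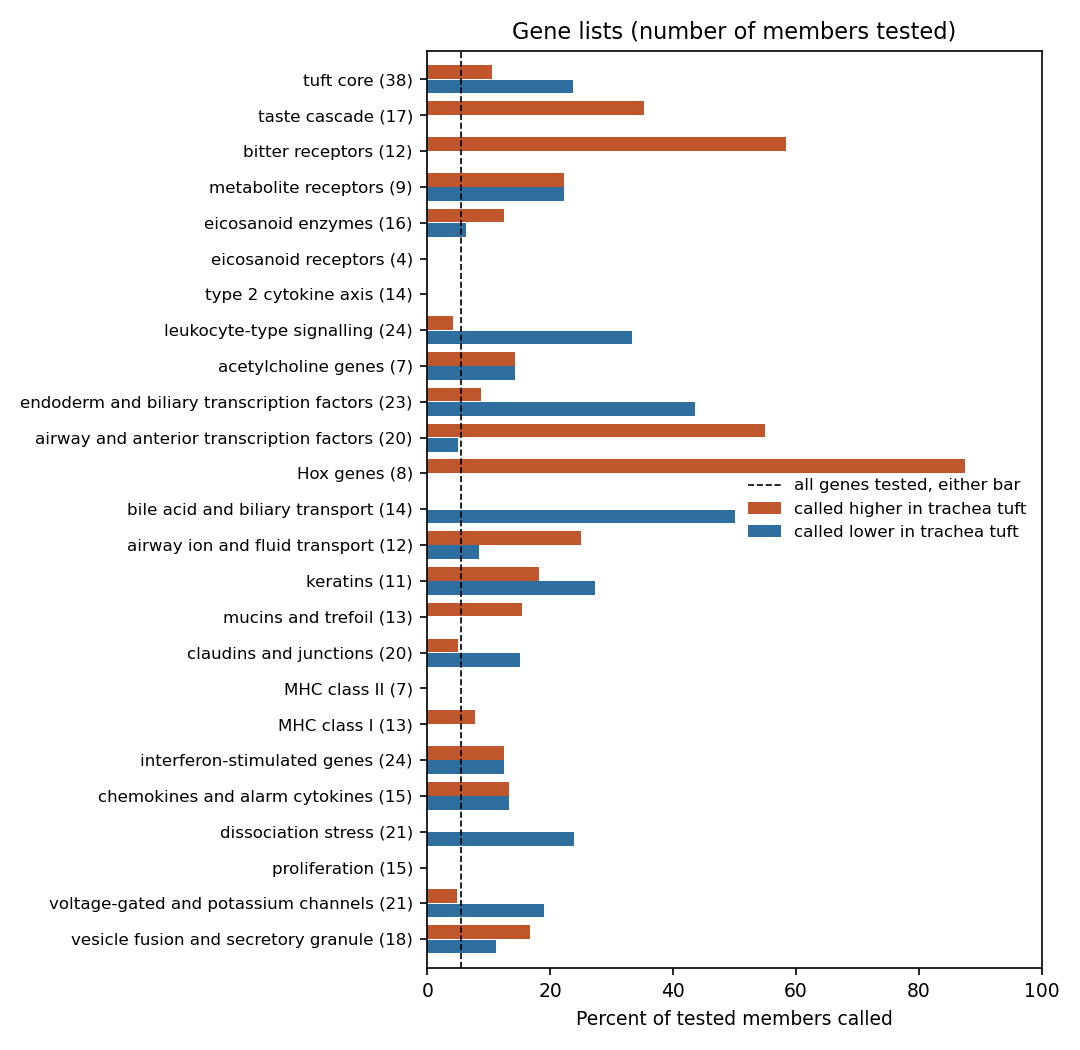
Percent of the tested members of 25 gene lists called higher (orange) and lower (blue) in trachea tuft cells, with the number of tested members in brackets. The dashed line marks 5.46%, the share of all tested genes called higher, to which the share called lower, 5.42%, is almost equal. The bars of bitter receptors, airway factors and Hox genes reach furthest on the higher side, and those of endoderm factors and biliary transport on the lower side.

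The genes picked by rank alone added others of known and unknown role. By fold and a mean of at least 20 CPM in trachea libraries, Olfr12, an olfactory receptor gene, was at 25.5, 357, 277 and 241 CPM in trachea libraries and at 0.259, 0 and 0 CPM in gall bladder libraries (log2 fold change 11.22 ± 1.51 SE, edgeR adjusted p = 0.000894). Sox21, an SRY-box gene of airway epithelium, was at 70.6, 122, 72.7 and 38.6 CPM in trachea libraries and at 0.141, 0 and 0 CPM in gall bladder libraries (10.49 ± 1.44). Neither was overlapped by any gall bladder library. The claudin gene Cldn22, which overlaps Wwc2 on the opposite strand, was at least 985-fold and Podxl2 at least 853-fold higher than a floor of 3 counts over the gall bladder group. Against 1 to 3 gall bladder counts, the ratio was 5222 for the sulfotransferase gene Sult1c1 (exact 95% interval 937 to 206281), 4601 for the complement gene C8b (825 to 181746), 3829 for Tnfrsf18 (687 to 151276), 2209 for the vomeronasal receptor gene Vmn1r43 (611 to 18242), 1627 for Tnfrsf19 (450 to 13439) and 1361 for Fbxl16 (466 to 6603). These ratios and floors rest on counts summed by group, and their intervals cover counting error only, not the spread between pools. On the scale of 18 tuft libraries, trachea values ran from 0.464 to 121 CPM for Fbxl16 and from 1.64 to 81.8 CPM for Tnfrsf18. For Sult1c1 they ran from 9.44 to 175 CPM and for Tnfrsf19 from 16.9 to 54.1 CPM. Tnfrsf18 lost its call without any 1 of the gall bladder libraries (adjusted p up to 0.0765), and Foxred2 (10.35) and Hoxa2 completed the rank. Olfr12 and Vmn1r43 belong to large families whose reads may be shared.

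Among genes lower in trachea libraries, the osteopontin gene Spp1 was at 0.891, 0.323, 0 and 0 CPM in trachea libraries and at 288, 333 and 127 CPM in gall bladder libraries (log2 fold change -9.63 ± 1.30 SE, edgeR adjusted p = 0.000918). Il2rb, a chain of the receptors for interleukins 2 and 15, was at 0.0524, 0.0140, 0.0598 and 0.0369 CPM in trachea libraries and at 4.81, 207 and 20.8 CPM in gall bladder libraries (-10.86 ± 1.53, adjusted p = 0.00118). It varied widely between gall bladder mice and had almost no counts in any trachea pool. Opcml had 1 count in trachea libraries and 1879 in gall bladder libraries, a ratio of 2777 of gall bladder over trachea (exact 95% interval 498 to 109735), most of them in replicate 3, without which the call was lost (adjusted p = 0.0709). For Habp2, a plasma protease gene, the same ratio was 2072 (709 to 10053). Lrg1 (-10.73), the exchange factor gene Rasgrf1 (-10.65), the homeobox gene Nkx6-2 (-9.93), Tcerg1l (-9.89), Lims2 (-9.73) and the anion exchanger family gene Slc4a9 (-9.69) were also named by fold, with Scn8a.

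By level in gall bladder libraries, the rule named Dmbt1, a scavenger receptor family protein of mucosal surfaces, at 135, 46.6, 311 and 184 CPM in trachea libraries and at 8142, 6392 and 10092 CPM in gall bladder libraries (log2 fold change -5.60 ± 0.58 SE, edgeR adjusted p = 0.000173). Clu, which encodes the secreted chaperone clusterin, was at 56.2, 73.9, 12.2 and 2.62 CPM in trachea libraries and at 2630, 2354 and 2310 CPM in gall bladder libraries (-6.07 ± 0.90, adjusted p = 0.00157). The small nuclear RNA gene Rn7sk (-7.20), the myosin gene Myo15b (-3.65) and the calcium release channel gene Itpr2 (-2.09) were also named by level, with Sh2d6, Krt18 and Avil. All lay higher in every gall bladder library. Rn7sk RNA is not polyadenylated as a rule, although the libraries were made from poly(A) RNA.

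By level in trachea libraries, the rule named genes of airway secretory cells in place of known tuft genes, apart from Gnat3. Scgb1a1 was at 51249, 15772, 13633 and 8609 CPM in trachea libraries and at 232, 0.305 and 0.651 CPM in gall bladder libraries (log2 fold change 8.17 ± 2.07 SE, edgeR adjusted p = 0.0263). Without gall bladder replicate 1 the fitted value was 15.48, and without replicate 4 the call was lost (adjusted p = 0.0522). Bpifa1, a secreted airway defence protein, was at 33701, 19128, 14428 and 10705 CPM in trachea libraries and at 148, 0.372 and 0.511 CPM in gall bladder libraries (8.62 ± 1.96), or 15.41 without gall bladder replicate 1. The cytochrome P450 gene Cyp2f2 (6.74, or 7.93 without that library), Scgb3a1 (8.39, or 15.21), Scgb3a2 (8.23, or 16.83), Cbr2 (8.35, or 11.51) and Muc5b (8.04, or 8.92) were the others. The value of 16.83 for Scgb3a2 is set against 0.0339 and 0.0232 CPM in gall bladder replicates 3 and 4 and is no bound.

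10 of the 11 tested markers of club and other airway secretory cells were called higher and 0 lower. Their summed level was 32725 to 125552 CPM in trachea libraries and 43.7 to 707 CPM in gall bladder libraries, and no marker of the list was at 0 in either group. In bulk samples, fewer cells of a type and less RNA per cell cannot be told apart. The markers' part in the results was not tested. Replicate 1 of the trachea had the highest sum of these markers and the lowest values of Gnat3, Trpm5, Tas2r108 and Pou2f3 among the trachea libraries. Other tuft genes were lowest elsewhere, Il25 in replicate 2, Gfi1b in replicate 3 and Avil in replicate 4.

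**Figure D5:**
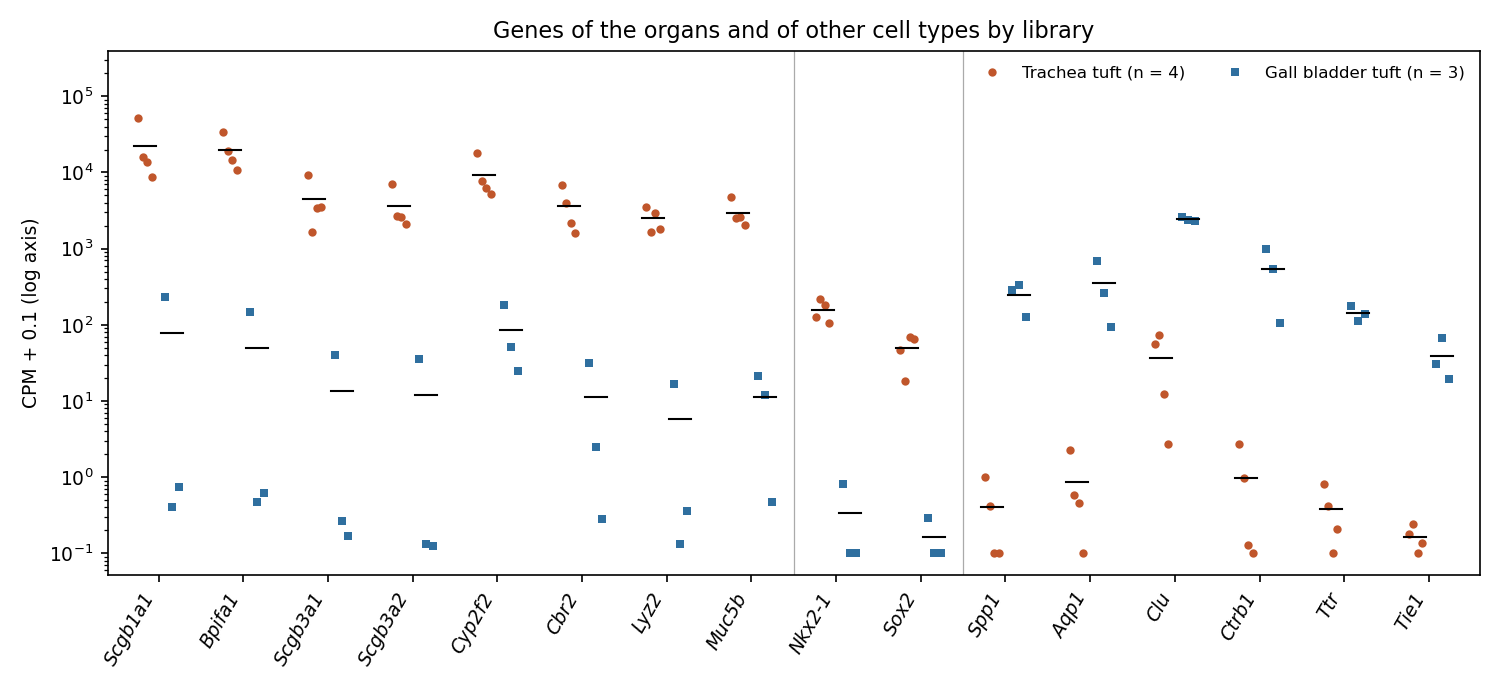
CPM + 0.1 on a log axis of 16 genes of the organs and of other cell types, in trachea tuft libraries (orange circles, n = 4) and gall bladder tuft libraries (blue squares, n = 3), with black bars at the means. Vertical lines separate airway secretory and myeloid genes, airway factors, and genes of gall bladder, liver, pancreas and endothelium. In most airway genes, 1 gall bladder point, replicate 1, lies far above the other 2, as for Scgb1a1 at 232 CPM.

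Markers of further cell types were called in part. Of 9 tested airway basal markers, Krt15, Ngfr (8.68) and Pdpn (9.47) were called higher and Icam1 (-2.75) lower, with sums of 388 to 957 CPM in trachea libraries and 49.8 to 144 CPM in gall bladder libraries. Lyz2, the lysozyme gene of myeloid and some epithelial cells, was at 3563, 1647, 2947 and 1821 CPM in trachea libraries and at 16.8, 0.0339 and 0.256 CPM in gall bladder libraries (8.77 ± 1.70 SE, edgeR adjusted p = 0.00738, or 13.95 without gall bladder replicate 1), and the other 3 tested myeloid markers were not called. Chad, a cartilage matrix gene, was at 1225, 448, 438 and 526 CPM in trachea libraries and at 5.54, 0.305 and 0.0465 CPM in gall bladder libraries (8.38 ± 1.42, or 11.93 without gall bladder replicate 1), while the cartilage genes Acan and Matn1 were at 0 in the trachea. Among 10 ciliated cell markers, Ccdc39 was called higher (8.99), and Dnah5, at 24.7, 7.16, 0.150 and 0.0738 CPM in trachea libraries and at 554, 534 and 525 CPM in gall bladder libraries, was called lower (-6.07). Ccdc39 overlaps Ttc14 on the opposite strand, which averaged 72.7 CPM in trachea libraries and 5.18 CPM in gall bladder libraries. Whether counting used strand is unknown, so the level and call of Ccdc39 are uncertain.

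On the gall bladder side, the acinar protease gene Ctrb1 was at 2.65, 0.870, 0.0299 and 0 CPM in trachea libraries and at 982, 539 and 107 CPM in gall bladder libraries (log2 fold change -9.23 ± 1.46 SE, edgeR adjusted p = 0.00235), while the acinar genes Prss1, Cpb1, Amy2b and Try4 were at 0 in both groups. The hepatocyte gene Ttr averaged 0.285 ± 0.312 CPM in trachea libraries and 142 ± 33.8 CPM in gall bladder libraries (-8.92), but the other 4 tested hepatocyte markers were not called, and Apoa1, at 126 ± 133 CPM in trachea libraries and 264 ± 165 CPM in gall bladder libraries, overlapped. The endothelial genes Tie1 and Egfl7 were called lower, Tie1 at 0.0786, 0.140, 0 and 0.0369 CPM in trachea libraries and at 30.3, 66.1 and 19.6 CPM in gall bladder libraries (-9.09 ± 1.46), and Egfl7 with 0 counts in trachea libraries, at least 252-fold lower there. The endothelial genes Kdr, Cldn5 and Emcn were at 0 in both groups. The T cell list was at 0.0369 to 2.05 CPM in trachea libraries and 18.9 to 38.2 CPM in gall bladder libraries, of which Lck made up 18.8 to 37.5 CPM. Of 12 tested biliary epithelium markers 1 was called higher, Muc5b, and 4 lower, and of 10 tested enterocyte markers 1 was called higher, Anpep (3.69), and 1 lower. The part of these markers in the other results was not tested. Egfl7 lost its call without any 1 of the gall bladder libraries, Icam1 and Anpep without 1 of several libraries of both groups, and Ccdc39 without gall bladder replicate 3 or 4 (adjusted p up to 0.201).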

How the data were processed

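Poly(A) RNA of sorted cells was amplified (NuGEN Ovation RNA-Seq V2, no molecular identifiers) before Nextera XT library construction, per the labels' protocols. The authors deposited raw counts per gene identifier, without normalization, for each library. STAR, DESeq2 and build GRCm38 are named, without versions, in the submitters' processing notes. How genes were counted, and whether by strand, was not given in the sources used here. Symbols and coordinates are those of GENCODE M21; 884 identifiers without a match held 0.122% of counts. The labels give each library as a separate replicate, and no 2 libraries agreed within sampling noise.

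From these counts, autosomal genes (chromosomes 1 to 19) of the 7 libraries were filtered with filterByExpr, scaled by TMM with library sizes from all rows, and tested in R 4.3.3 with the quasi-likelihood F test of edgeR 4.0.16 (two-sided, glmQLFit with legacy = TRUE), and p-values were adjusted by Benjamini-Hochberg over all 13035 genes. A call needed adjusted p < 0.05 together with a log2 fold change of 1 or more in size. Standard errors, derived from the F statistic, are approximate. Ratios with 1 to 3 counts are of counts summed by group and have exact 95% intervals, which cover counting error only. DESeq2 1.42.0, limma 3.58.1 and other settings were alternatives, 18 in all. Adjusted p-values that DESeq2 gave as missing stayed missing. The fit was tested on simulated data. Summaries and plots were made in Python 3.11.15 (pandas 2.3.3, matplotlib 3.10.9). CPM is not divided by gene length, so levels are compared within a gene.

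Members, gene lists and the rule for named genes were chosen with earlier results of these data known. The rule took called genes without overlap between groups and averaging 20 CPM or more in the higher group, the 12 largest changes and the 8 highest levels each way, leaving out predicted genes, pseudogenes and antigen receptor segments. List members could be named too. Some genes that the rule or the lists could name are not reported here.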

Additional observations from a re-analysis of the deposited data

Results flagged for a closer look

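Among 158 values screened over the 4 trachea pools (genes named in the text or sums of markers, with a mean of at least 1 CPM), 15 had 1 pool whose gap to the nearest other, as a share of the whole range, exceeded Dixon's 95% critical value for 4 samples. For independent values from a normal distribution, chance would give this for about 1 in 20. The screen used CPM without a log scale, for which that rate need not hold. In replicate 1 the highest value stood apart for Scgb1a1 (gap of 0.832 of the range), Scgb3a2 (0.878), Krt4 (0.928), Chad (0.889) and the summed chondrocyte markers (0.891), of which Chad is nearly the whole. In replicate 2 the highest value stood apart for Tec (0.866), Slc44a4 (0.876), Foxa1 (0.896), Hoxa4 (0.890) and Tnfrsf18 (0.973). In replicate 3 it stood apart for Cldn22 (0.905), Podxl2 (0.840), Sult1c1 (0.930) and Foxred2 (0.974), all named by their fold, and Foxe1 was low there (0.831). The trachea pools held 210, 453, 130 and 230 sorted cells in replicates 1 to 4, and the part of cell number in these values was not tested.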

How the results depend on the processing

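The number of genes called depended on the fit and on the gall bladder libraries. Against 712 higher and 707 lower, the fit of all 18 tuft libraries called 2206 higher and 2339 lower and DESeq2 1493 higher and 1161 lower. Male libraries alone gave 310 and 413, and sex as a term 405 and 285. Leaving out 1 library gave 353 to 638 higher and 373 to 674 lower. The main fit did not pair libraries by replicate number. Same-numbered libraries had correlations of their deviations of 0.0657, 0.0285 and 0.00682, and different-numbered ones of -0.0435 to 0.0137. With the replicate block the calls were 419 higher and 421 lower. Called members of the function lists numbered 114, and 174 with 18 libraries, 74 with males only, 73 with sex as a term, and 70 to 109 without 1 library. RLE factors, library totals, voom, both filters and all chromosomes kept gave counts within 1.5 times. Median log2 fold changes of all genes moved from 0.14 to between -0.11 (males only) and 0.27 (without gall bladder replicate 1). Of the 114 called list members, 62 kept their call without each library in turn and 52 in all alternatives that could be fitted, and of 40 genes named by rank, 37 and 32. No called gene named in the text changed its direction in any of the 18 alternatives. Uncalled ones crossed 0: Il25 was at -0.050 with males only and between -0.19 and 1.02 without 1 library, negative without gall bladder replicate 4 or trachea replicate 4. Ptgs1 was at -0.15 with males only, -0.092 with sex as a term and between -0.041 and 0.19 without 1 library, and Epcam at -0.088, -0.030 and between -0.024 and 0.24 in the same settings. The cause was not tested. With 130 to 453 cells per pool, a low count in the trachea does not show absence.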
